A study of Mus musculus with 35 samples.

Results

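Kidneys of diabetic mice were compared with control kidneys at 2 months of age, the youngest of 3 ages in the series. The comparison used 12 of the 35 arrays, 6 from diabetic and 6 from control kidneys, chosen by the age, group and number in their titles. All mice were of the FVB/NJ strain, total RNA came from whole kidney, and each array is a single-colour Affymetrix array of biotin-labelled cRNA. The series title names the diabetic line OVE26. The labels give no allele for either group, do not say whether the controls carry a transgene, and do not state that each array came from a separate animal or what the array numbers mean. The p-values therefore measure the spread between samples, which may in part be technical. In the main fit this spread is taken over all 35 arrays and not over the 12 alone.

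OVE26 mice carry a calmodulin transgene under an insulin promoter, which damages the pancreatic beta cells and leaves the mice short of insulin from early life. In diabetes the proximal tubule, which reclaims filtered glucose, amino acids, peptides and phosphate, meets a high glucose load, and the kidney enlarges before scarring and inflammation are seen. Chaperones such as the heat shock proteins refold or clear damaged proteins in the cytosol, the unfolded protein response does so in the endoplasmic reticulum, and p53 targets such as the cell cycle inhibitor p21 respond to DNA damage and other stress.

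Markers of kidney were high on all 12 arrays. Slc34a1, the main phosphate transporter of the proximal tubule, lay between 13.72 and 14.02 on a log2 scale, and the mean of 25 proximal tubule markers lay between 12.04 and 12.29 on diabetic and between 11.94 and 12.24 on control arrays. Xist, the RNA that coats an inactive X chromosome, was between 10.68 and 11.42 on each array, and no Y-linked gene exceeded 4.42. Arrays 5 and 6 of both groups stood apart from arrays 1 to 4: on the component that held 42.8% of the variance they lay from -36.62 to -9.32, and the others from 7.18 to 14.09. Control array 6 had a 3'/5' log2 ratio of 2.56 for beta-actin and 0.986 for Gapdh, against at most 1.35 and 0.148 on the other arrays. These ratios and the component did not separate the groups (exact permutation test, two-sided, p = 0.825 for actin, 0.71 for Gapdh and 0.835 for the component, each 0.835 after Benjamini-Hochberg adjustment over 4 measures, n = 6 and 6). The clock genes Arntl, the BMAL1 activator that peaks at the opposite time to its targets, and Dbp, one of those targets, stood at other levels on diabetic arrays 1, 5 and 6 and control array 6. Arntl was 7.66 to 8.28 and Dbp 7.95 to 9.29 on those 4 arrays, against 6.52 to 6.82 and 10.14 to 11.62 on the other 8. The 4 arrays were not alike in 2 further clock genes. Nr1d1 was 6.14 to 7.08 and Per1 7.63 to 8.18 on diabetic arrays 5 and 6 and control array 6. On diabetic array 1 they were 8.44 and 9.52, and on the other 8 arrays 7.86 to 8.97 and 8.09 to 9.25. More diabetic than control arrays had this shift, and the difference Arntl minus Dbp between groups was 1.33 (exact permutation p = 0.219, 0.835 adjusted). For some of the genes and gene lists below, differences are therefore also given within arrays 1 to 4 and within arrays 5 and 6. Values without the 4 clock-shifted arrays likewise stand beside some of them. Where such values are absent, equal sizes in the sets of arrays are not implied. The named genes whose calls were lost without the 4 arrays are listed at the end.

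**Figure D1:**
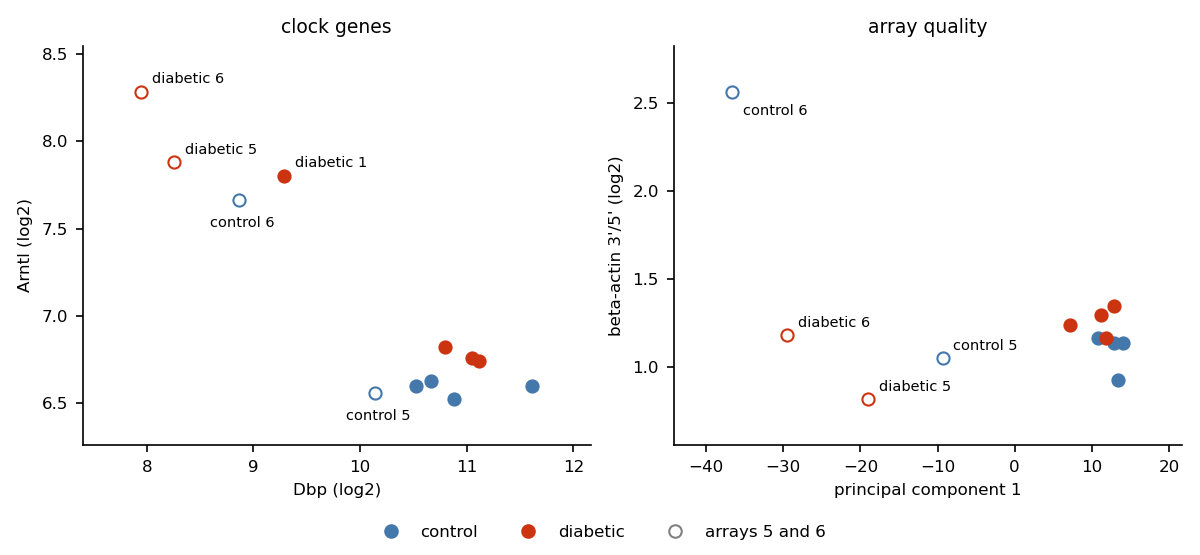
Left, log2 values of Arntl against Dbp on each 2-month array; right, beta-actin 3'/5' log2 ratio against the first principal component of all genes tested. Blue circles are control and red circles diabetic arrays, and open circles are arrays 5 and 6. Diabetic arrays 1, 5 and 6 and control array 6 have high Arntl and low Dbp, and control array 6 has the highest actin ratio, 2.56.

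Of 13004 genes tested, 330 differed between diabetic and control kidney at 2 months, which is 2.54%. A gene is said to have risen or fallen where the two-sided p of the linear model fit in limma over all 35 arrays, adjusted over all genes tested by the Benjamini-Hochberg method, was under 0.05. Differences are diabetic minus control means of log2 values with the SE of the fit (n = 6 and 6). Genes that the naming rule did not choose were named after their values were seen, for the role they have, and are listed with the methods. Of the 330 genes, 98 (0.754% of genes tested) rose and 232 (1.78%) fell. These shares are the background for every count of list members below. Most changes were small: the median size was 0.415, and 17 genes changed by at least 2-fold, 6 higher and 11 lower. The 6 diabetic and 6 control values did not overlap for 195 genes (1.5%), of which 127 were among the 330, 39 higher and 88 lower. The difference had the same sign in all 6 pairs of same-numbered arrays for 285 of the 330 genes, and in at least 5 pairs for all 330. All 330 also had the same sign in the mean of arrays 1 to 4 and in the mean of arrays 5 and 6. Because members were picked by their difference over these same arrays, such agreement is a description of them only.

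The number of genes depended on the estimate of spread more than the direction did. Fitted to the 12 arrays alone, 64 genes passed (0.492%), and 60 of these were among the 330, 11 higher and 49 lower. Same-numbered arrays of the groups deviated together, with correlations of 0.246 to 0.444 in the 6 pairs, so the number was also fitted as a block. The blocked fit of all 35 arrays called 553 genes (4.25%) and kept 305 of the 330, and the blocked fit of the 12 arrays called 168 (1.29%) and kept 125. With a single array left out, 192 genes (without control array 2) to 515 (without diabetic array 2) passed. The other arrays that moved the count by over 1.5 times were control array 1, with 219 genes without it, and control array 5, with 512. Without control array 6, the array of high 3'/5' ratios, 455 passed. Leaving out the 4 clock-shifted arrays gave 162. Of the 330 genes, 148 passed with each of the 12 arrays left out in turn. Below, a call held in all 12 of these fits unless the arrays without which it was lost are named.

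**Figure D2:**
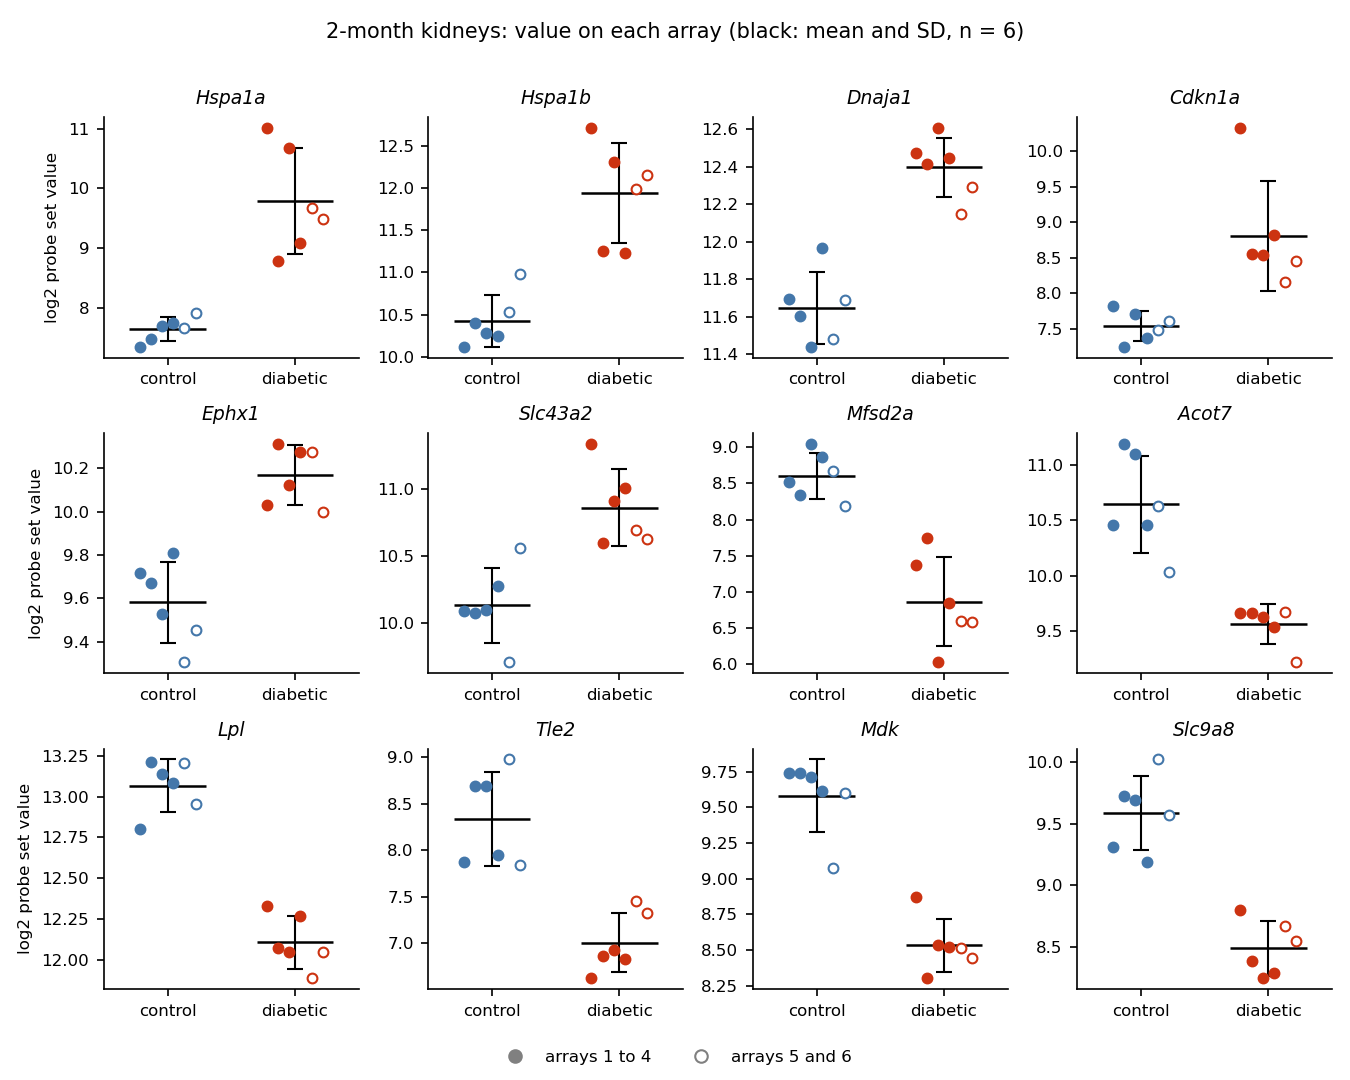
Log2 probe set values of 12 named genes on each 2-month array, control (blue) and diabetic (red), with open circles for arrays 5 and 6; black lines are the mean and SD of 6 arrays. In each panel the groups do not overlap; the vertical scales differ between panels and do not start at 0. Hspa1a lies between 7.34 and 7.90 on control and between 8.78 and 11.02 on diabetic arrays.

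The gene with the largest rise was Hspa1a (gene ID 193740), which with its near-identical neighbour Hspa1b encodes the stress-inducible cytosolic chaperone HSP70. Hspa1a ranged from 7.34 to 7.90 (median 7.67) on control arrays and from 8.78 to 11.02 (median 9.58) on diabetic arrays. All 6 diabetic values lay above all control values, with diabetic arrays 1 and 3 the highest. The difference was 2.15 ± 0.35, or 4.44-fold higher (95% confidence interval 1.44 to 2.86 on the log2 scale, adjusted p = 0.000385). On the 12 arrays alone the adjusted p was 0.00569 without and 0.0134 with the block. Hspa1b was at 10.12 to 10.98 (median 10.34) in controls and 11.23 to 12.71 (median 12.07) in diabetic kidneys, again without overlap, a difference of 1.51 ± 0.23, or 2.86-fold (adjusted p = 0.000179). Its other 2 probe sets gave 1.90 and 1.65, both past the threshold. Signal on these probe sets may be shared between the 2 copies, since their sequences are nearly the same. Control array 6 had the highest control value of both genes. Within arrays 1 to 4 the differences were 2.32 and 1.61, and within arrays 5 and 6 they were 1.81 and 1.32. Leaving out the clock-shifted arrays gave 1.93 (adjusted p = 0.0164) and 1.28 (0.00963).

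Dnaja1, a J-domain co-chaperone that hands clients to HSP70, rose with them. It was at 11.44 to 11.97 (median 11.65) in controls and 12.15 to 12.61 (median 12.43) in diabetic kidneys, with no overlap, a difference of 0.75 ± 0.12 (adjusted p = 0.000385). Another 4 members, named after their values were seen, rose by less. Dnajb4, another J-domain protein, differed by 0.61 ± 0.16 (adjusted p = 0.0348; lost without diabetic arrays 1, 3, 5 and 6 or control arrays 1, 4 and 6, up to 0.0934, and 0.22 without the 4 clock-shifted arrays), and Hspa2, an HSP70 relative best known in testis, by 0.55 ± 0.13 (0.0193; lost without diabetic arrays 1 and 3 or control array 1, up to 0.0615). Bag3, an HSP70 partner in the clearing of misfolded proteins, differed by 0.36 ± 0.10 (adjusted p = 0.0455; lost without diabetic arrays 1, 3, 4 and 5 or control arrays 1, 2, 4, 5 and 6, up to 0.115). Hspa8, the constitutive HSC70, was at 13.43 to 13.52 (median 13.50) in controls and 13.60 to 13.95 (median 13.75) in diabetic kidneys, a difference of 0.28 ± 0.08 (adjusted p = 0.0433; lost without diabetic arrays 1, 3 and 4 or control arrays 1, 2, 3, 4, 5 and 6, up to 0.106). For Dnaja1 other probe sets gave 0.43 (called) and 0.27 (not called), while for Dnajb4 one gave 0.74 and was called and one gave -0.09.

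The promoters of the risen genes are shown because HSF1, the factor that switches on chaperone genes, binds inverted repeats of its short site. RefSeq promoter windows (GRCm38.p6) were searched on both strands over 250 bases before the start for the heat shock element, GAANNTTC or TTCNNGAA, 2 forms that can overlap each other. Of the 7 risen members 6 had a window and 4 of these, Hspa1a, Hspa1b, Dnaja1 and Dnajb4, held an element; of 19 tested members with a window that did not rise, 9 held it. The element was in 12.84% of 32851 windows, and 14.55% of 27025 genes had it in at least 1 window. The 150 bases before the start are printed 5′ to 3′ on the gene's strand, with the element in capitals. A match is a run of letters and not a measured binding site.
Hspa1a, chr17:34972157-34972306, minus strand: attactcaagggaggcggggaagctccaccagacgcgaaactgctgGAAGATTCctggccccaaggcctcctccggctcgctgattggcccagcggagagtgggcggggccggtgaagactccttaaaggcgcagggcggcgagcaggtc
Hspa1b, chr17:34959239-34959388, minus strand: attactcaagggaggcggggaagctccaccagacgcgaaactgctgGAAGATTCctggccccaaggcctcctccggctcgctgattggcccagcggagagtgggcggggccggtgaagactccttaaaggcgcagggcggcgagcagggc
Dnaja1, chr4:40722318-40722467, plus strand: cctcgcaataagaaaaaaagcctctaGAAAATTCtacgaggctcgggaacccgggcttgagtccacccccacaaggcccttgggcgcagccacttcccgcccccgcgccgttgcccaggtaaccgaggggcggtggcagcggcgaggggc
Dnajb4, chr3:152193846-152193995, minus strand: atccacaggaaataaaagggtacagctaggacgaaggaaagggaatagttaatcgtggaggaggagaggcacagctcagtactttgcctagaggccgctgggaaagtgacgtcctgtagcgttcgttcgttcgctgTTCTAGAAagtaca
The windows of Hspa1a and Hspa1b had the same base at 149 of 150 positions and the element GAAGATTC from base -104 to -97 relative to the start. Dnaja1 had GAAAATTC from -124 to -117 in 1 of its 3 windows, and Dnajb4 had TTCTAGAA from -14 to -7 in 1 of its 2. Only the window with the element is printed for these genes, and their other windows lacked it.

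Over the list of heat shock chaperones and co-chaperones, 7 of 29 tested members rose and 2 fell (0.754% and 1.78% over all genes tested), and the median difference was 0.08, against -0.01 over all genes tested. The median was 0.14 within arrays 1 to 4 and -0.04 within arrays 5 and 6, so its sign was not the same in them. The 2 that fell were Cryab, the small heat shock protein alpha-B-crystallin, with -0.42 ± 0.12 (adjusted p = 0.0416; lost without diabetic arrays 1, 3, 5 and 6 or control arrays 1, 2, 3, 4 and 6, up to 0.0988), and Cct5, a subunit of the ring chaperonin that folds actin and tubulin, with -0.29 ± 0.06 (0.00758). Without the 4 clock-shifted arrays these were -0.17 and -0.14 and neither passed. Other stress chaperones did not pass in the main fit: Hsph1 differed by 0.26 ± 0.16, Dnajb1 by 0.49 ± 0.20, Hspb1 by 0.04 ± 0.16 and Hsp90aa1 by -0.24 ± 0.09, named after their values were seen. A dimmer probe set of Dnajb1 gave 0.71 and was called. Without the 4 clock-shifted arrays Hsph1 stood at 0.66 and passed (adjusted p = 0.0388), while Dnajb1 stood at 0.19 and did not. Hsph1 differed by 0.55 within arrays 1 to 4 and by -0.31 within arrays 5 and 6. Dnaja4 differed by 0.32 ± 0.11 (adjusted p = 0.105) and passed with the block (0.043), but not with the block on the 12 arrays (0.13).

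Genes of the endoplasmic reticulum moved in both directions. Of 28 tested members of the unfolded protein response 2 rose and 3 fell (0.754% and 1.78% over all genes tested). The median difference was -0.13 (-0.03 within arrays 1 to 4, -0.12 within arrays 5 and 6, and 0.05 without the 4 clock-shifted arrays). Dnajb9, a co-chaperone that holds the stress sensor IRE1 inactive, was at 10.20 to 10.90 (median 10.68) in controls and 10.73 to 11.54 (median 11.15) in diabetic kidneys, a difference of 0.52 ± 0.11 (adjusted p = 0.00512). Eif2ak3, the sensor kinase PERK, differed by 0.41 ± 0.10 (0.0208; lost without diabetic array 3, 0.0699). Syvn1, the ubiquitin ligase that marks misfolded proteins for removal, rose without overlap from 8.94 to 9.29 (median 9.09) to 9.53 to 9.86 (median 9.67), a difference of 0.58 ± 0.09 (adjusted p = 0.000184), and its other probe set gave 0.52 and was called.

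Folding factors were among those that fell. Dnajc3, an inhibitor of PERK, went from 10.66 to 10.74 (median 10.71) in controls to 10.05 to 10.62 (median 10.29) in diabetic kidneys without overlap, a difference of -0.41 ± 0.08 (adjusted p = 0.00245). Pdia6, a disulfide isomerase, differed by -0.46 ± 0.12 (0.0254; lost without diabetic arrays 1, 5 and 6 or control arrays 1, 2, 3 and 4, up to 0.088), and Hyou1, a large chaperone of this compartment, by -0.41 ± 0.11 (0.0273; lost without diabetic arrays 1, 5 and 6 or control array 6, up to 0.0704). A dimmer probe set of Hyou1 gave 0.12 and was not called, and the mean of its probe sets differed by 0.10 in the other direction (adjusted p = 0.777). Outside the list and named after their values were seen, the isomerase Pdia5 (-0.43), the translocon subunit Sec61b (-0.41), the cargo receptor Tmed3 (-0.45) and the oligosaccharyltransferase subunit Rpn1 (-0.38) passed as lower. Rpn1 did not pass with the block (adjusted p = 0.0559), was lost without diabetic arrays 5 and 6 or control arrays 2, 3 and 6 (up to 0.135), and stood at -0.14 within arrays 1 to 4 and -0.86 within arrays 5 and 6. The central chaperone BiP, Hspa5, differed by -0.11 ± 0.15, Hsp90b1 by -0.32 ± 0.10, Xbp1 by 0.01 ± 0.10, Atf4 by 0.25 ± 0.10 and Ddit3 by 0.38 ± 0.16, and none of these 5 passed on its brightest probe set. Hsp90b1 did with the block (adjusted p = 0.0459), but not with the block on the 12 arrays (0.202). A dimmer probe set of Ddit3 gave 0.60 and was called. Without the 4 clock-shifted arrays the differences of Dnajc3, Pdia6, Hyou1, Sec61b and Rpn1 were -0.24, -0.23, -0.21, -0.25 and -0.10, those of Pdia5 and Tmed3 were -0.39 and -0.35, and none of the 7 passed, while Dnajb9 stood at 0.70 (adjusted p = 8.02e-05) and Syvn1 at 0.66 (0.00167).

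Of 22 tested p53 targets 5 rose and 0 fell, where 0.754% of all genes tested rose and 1.78% fell, with a median difference of 0.20 (0.27 within arrays 1 to 4 and 0.15 within arrays 5 and 6). Cdkn1a, which encodes the cell cycle inhibitor p21, was at 7.24 to 7.81 (median 7.54) in controls and 8.15 to 10.33 (median 8.54) in diabetic kidneys. The groups did not overlap, and diabetic array 1 stood apart, at 10.33 against 8.82 for the next highest. The difference was 1.27 ± 0.25, or 2.41-fold (adjusted p = 0.00322). On the 12 arrays alone the adjusted p was 0.0673 without and 0.0268 with the block. A dimmer second probe set of Cdkn1a gave 0.38 and was not called. Ephx1, a microsomal epoxide hydrolase that is also counted among the antioxidant genes, rose without overlap, from 9.30 to 9.81 (median 9.60) in controls to values of up to 10.31 (median 10.20) in diabetic kidneys, a difference of 0.59 ± 0.10 (adjusted p = 0.000916). Phlda3, an inhibitor of Akt, differed by 0.57 ± 0.13 (0.0117), and the cyclin G gene Ccng1 by 0.45 ± 0.08 (0.00188), with 0.90 and 0.92 on its other 2 probe sets, both called. Trp53inp1 differed by 0.47 ± 0.12 (0.025; lost without diabetic arrays 1 and 3 or control arrays 1 and 3, up to 0.0704). Mdm2, which degrades p53, differed by 0.18 ± 0.09, and Plk2 by 0.40 ± 0.13 (adjusted p = 0.103, 0.0474 with the block, 0.0555 with the block on the 12 arrays). Of 22 cell cycle genes 0 passed in the main limma fit (2 at an unadjusted p under 0.05) at a median of 0.18. On the 12 arrays alone 1 passed, and 2 rose with the block there. Of the 22 differences 19 were positive, against 5950 of 13004 genes tested. The mean level of the list was 7.17 to 7.61 on diabetic and 7.02 to 7.13 on control arrays, without overlap, and was not tested. Mki67 and Top2a, present in dividing cells, differed by 0.30 ± 0.31 and 0.32 ± 0.40. Ccnd1, cyclin D1, differed by 0.41 ± 0.12 (adjusted p = 0.0671) and passed with the block (0.0197).

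**Figure D3:**
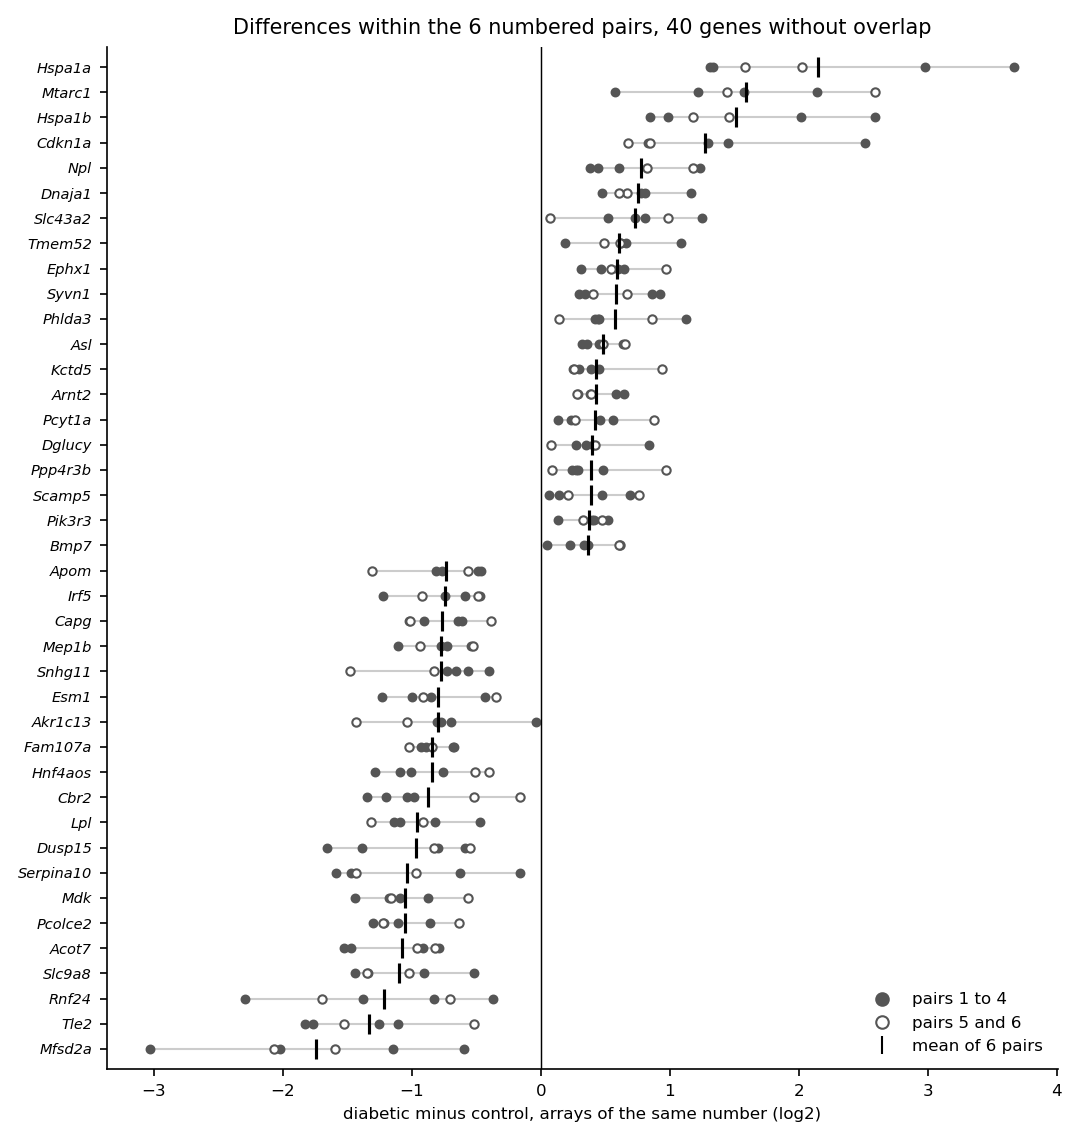
Diabetic minus control log2 difference within each of the 6 pairs of same-numbered arrays, for the 20 genes of largest rise and the 20 of largest fall among called genes whose groups did not overlap. Filled circles are pairs 1 to 4, open circles pairs 5 and 6, and bars the mean of 6 pairs. All 6 differences of each gene lie on the same side of 0, which their choice by lack of overlap fixes.

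Lipid genes held the largest fall. Mfsd2a, a transporter that takes up lysophosphatidylcholine and with it long-chain fatty acids, was at 8.18 to 9.05 (median 8.59) in controls and 6.02 to 7.75 (median 6.72) in diabetic kidneys. No diabetic value reached the lowest control value, and the spread among diabetic arrays was wide. The difference was -1.74 ± 0.22, that is 3.35-fold lower (interval -2.19 to -1.30, adjusted p = 1.24e-05), with -1.70 within arrays 1 to 4 and -1.83 within arrays 5 and 6. Acot7, an acyl-CoA thioesterase that frees fatty acids from coenzyme A, went from 10.04 to 11.19 (median 10.54) to 9.22 to 9.67 (median 9.64), a difference of -1.08 ± 0.17 (adjusted p = 0.000184). Lpl, the lipase that releases fatty acids from circulating triglyceride, was the brightest of the 3, at 12.80 to 13.21 (median 13.11) in controls and 11.89 to 12.33 (median 12.06) in diabetic kidneys. Its difference was -0.96 ± 0.15 (adjusted p = 0.000215), and its other probe set gave -1.22 and was called.

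Lpl is also made by fat cells, and fat markers varied from array to array. Adipoq, the fat cell hormone adiponectin, lay between 4.18 and 8.79 on control and between 4.09 and 10.20 on diabetic arrays. The mean of 8 tested fat markers lay between 6.66 and 8.06 on control and between 6.41 and 8.86 on diabetic arrays, 0 of the 8 were called (also unadjusted), and the groups overlapped. The part of such tissue in the Lpl result was not tested; the 2 diabetic arrays of the lowest Adipoq, 2 and 4, read 12.08 and 12.27 for Lpl, against 12.96 on control array 6, where Adipoq was lowest among controls.

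These were the 3 called members among 25 tested genes of fatty acid synthesis and storage, whose median difference was -0.16 (-0.14 and -0.19 within the 2 sets of arrays); 5 fell with the block over 35 arrays. Fasn, fatty acid synthase, differed by -0.42 ± 0.21 and did not pass (adjusted p = 0.337, 0.265 with the block), although its groups did not overlap. It passed in the blocked fit of the 12 arrays (0.0361). Scd1, which makes monounsaturated fatty acids, differed by -0.58 ± 0.17 (adjusted p = 0.0605). It passed with the block (0.0214), but not with the block on the 12 arrays (0.089). Apom, the apolipoprotein that carries sphingosine-1-phosphate, fell without overlap from 10.38 to 10.83 (median 10.69) to 9.34 to 10.24 (median 10.01), a difference of -0.73 ± 0.16 (adjusted p = 0.00835). Lrp8, a lipoprotein and reelin receptor, differed by -0.91 ± 0.21 (0.0151). On the side of fat burning, 0 of 30 tested enzymes of beta-oxidation and targets of the receptor PPAR-alpha passed (5 at an unadjusted p under 0.05), at a median of 0.16 that was 0.22 within arrays 1 to 4 and -0.03 within arrays 5 and 6. Cpt1a, which admits fatty acids to mitochondria, differed by 0.39 ± 0.14, Pdk4 by 0.49 ± 0.57 and Angptl4 by 0.34 ± 0.53, with intervals of 0.10 to 0.67, -0.67 to 1.65 and -0.74 to 1.42. Pcyt1a, the regulated enzyme of phosphatidylcholine synthesis, rose by 0.42 ± 0.10 (adjusted p = 0.0169; lost without diabetic array 3, 0.0522, and 0.27 without the 4 clock-shifted arrays). Of 20 cholesterol genes 0 passed (3 unadjusted).

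Several secreted factors and signalling genes fell. Tle2, a Groucho corepressor that restrains Wnt and Notch targets, was at 7.84 to 8.98 (median 8.32) in controls and 6.62 to 7.45 (median 6.89) in diabetic kidneys without overlap, a difference of -1.33 ± 0.19, or 2.52-fold lower (adjusted p = 6.09e-05). It was the only called gene of 30 in the Wnt list in this fit, and 2 members fell with the block over 35 arrays. Mdk, the heparin-binding growth factor midkine, went from 9.08 to 9.75 (median 9.66) to 8.30 to 8.87 (median 8.52), a difference of -1.05 ± 0.15 (adjusted p = 0.000121). Control array 5 was the lowest control for Mdk, at 9.08, and still lay above every diabetic array. The related factor Ptn differed by 0.12 ± 0.09, and the midkine-binding proteoglycans Sdc1 and Sdc4 by -0.12 ± 0.15 and 0.00 ± 0.15.

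Among other growth factor genes, Fgf1 differed by -0.49 ± 0.13 (adjusted p = 0.0395; lost without diabetic arrays 1, 2, 3 and 4 or control arrays 2, 3, 4 and 5, up to 0.093) and the growth hormone receptor Ghr by -0.25 ± 0.07 (0.0327; lost without diabetic arrays 3 and 5 or control arrays 2, 3, 5 and 6, up to 0.0724). The receptor Fgfr3 and the kinase Jak2, which signals from Ghr, differed by -0.58 ± 0.10 (0.000639) and -0.46 ± 0.08 (0.000385), named after their values were seen; another probe set of each gave 0.01 and -0.18, not called. Igf1 and the insulin receptor Insr differed by -0.30 ± 0.20 and -0.20 ± 0.13 and did not pass. Bmp7, a kidney-protective member of the BMP family, rose from 8.26 to 8.76 (median 8.50) to 8.80 to 8.97 (median 8.86) without overlap, a difference of 0.37 ± 0.09 (adjusted p = 0.0156), the only called gene of 33 in its list. Pik3r3, a regulatory subunit of PI3-kinase, rose by 0.38 ± 0.07 (0.00245).

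The matrix gene Pcolce2, which speeds the trimming of procollagen, fell from 7.38 to 8.36 (median 8.06) to 6.75 to 7.14 (median 6.94), a difference of -1.06 ± 0.21 (adjusted p = 0.00276), and it alone passed among 38 tested genes of fibroblasts and matrix. Of those 38 genes, 30 had a positive difference, against 5950 of 13004 genes tested, and the median was 0.17 (0.13 within arrays 1 to 4 and 0.21 within arrays 5 and 6). Col1a1 lay at 7.16 to 7.50 (median 7.37) in controls and 7.45 to 8.32 (median 7.72) in diabetic kidneys, a difference of 0.42 ± 0.33 with an interval of -0.26 to 1.10 (adjusted p = 0.607). Col3a1 differed by 0.45 ± 0.39 (adjusted p = 0.64, 0.043 in the blocked fit of the 12 arrays), Col4a1 by 0.03 ± 0.17, Fn1 by 0.06 ± 0.24, Tgfb1 by 0.18 ± 0.12 and Ccn2, connective tissue growth factor, by -0.01 ± 0.20. The upper bounds for Fn1 and Ccn2 were 0.55 and 0.40. The SE of Col3a1 exceeds its SD of 0.17 in each group at 2 months, because the fit also holds the spread at the other ages. Esm1, the endothelial proteoglycan endocan that VEGF induces, fell from 7.84 to 8.55 (median 8.32) to 7.22 to 7.70 (median 7.46), a difference of -0.79 ± 0.17 (adjusted p = 0.00825), the only called gene of 25 endothelial and VEGF genes. Vegfa differed by 0.02 ± 0.09 (interval -0.16 to 0.20).

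Transport genes of the tubule moved in both directions. Slc9a8, the sodium-proton exchanger NHE8 of the proximal tubule, was at 9.19 to 10.02 (median 9.63) in controls and 8.25 to 8.80 (median 8.46) in diabetic kidneys without overlap, a difference of -1.10 ± 0.18, or 2.14-fold lower (adjusted p = 0.000368). Its 2 other probe sets above the filter gave -0.32 and -0.27 and were not called. Slc15a2, the PEPT2 transporter that recovers small peptides, fell from 12.16 to 12.44 (median 12.26) to 11.39 to 11.83 (median 11.64), a difference of -0.65 ± 0.09 (adjusted p = 2.3e-05), with -0.68 (called) and -0.19 (not called) on other probe sets. Slc6a18, a brush border carrier of glycine and other neutral amino acids, differed by -0.47 ± 0.09 (0.00194), and Slc3a1, the heavy chain of the cystine transporter, by -0.24 ± 0.06 (0.0149). Slco1a6, an organic anion transporter, fell by 0.41 from 12.31 to 12.55 (median 12.40) to 11.91 to 12.10 (median 12.04) (0.00255).

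Other amino acid carriers rose. Slc43a2, a carrier that lets branched-chain and aromatic amino acids leave the basal side of the cell, went from 9.70 to 10.55 (median 10.09) to 10.59 to 11.34 (median 10.80) without overlap, a difference of 0.73 ± 0.15 (adjusted p = 0.00525). Slc38a3, the glutamine importer that feeds ammonia production, was at 7.94 to 9.07 (median 8.53) in controls and 8.79 to 9.83 (median 9.38) in diabetic kidneys, a difference of 0.80 ± 0.19 (0.0193; lost without diabetic arrays 1 and 4, up to 0.0526). Slc3a2, the heavy chain partner of several carriers, differed by 0.33 ± 0.08 (0.0216; lost without control arrays 1 and 2, up to 0.0654). With the fallen carriers this made 3 higher and 3 lower of 28 tested amino acid transporters (0.754% and 1.78% over all genes tested), at a median of 0.01. In the list of gluconeogenesis and ammonia production 2 of 18 rose (0.754% over all genes tested). They were Slc38a3 and the mitochondrial citrate carrier Slc25a1 (0.31 ± 0.07, adjusted p = 0.0168). The Slc25a1 call was lost without diabetic array 5 (adjusted p = 0.0502), and its difference was 0.15 without the 4 clock-shifted arrays. Pck1 differed by 0.03 ± 0.08 (interval -0.14 to 0.21) and G6pc, glucose-6-phosphatase, by 0.32 ± 0.11 (0.10 to 0.54, adjusted p = 0.105).

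Of 37 genes of amino acid breakdown 2 rose and 1 fell (0.754% and 1.78% over all genes tested). Asl, the urea cycle enzyme that in kidney serves arginine synthesis, went from 11.11 to 11.49 (median 11.33) to 11.60 to 11.96 (median 11.79) without overlap, a difference of 0.48 ± 0.10 (adjusted p = 0.00597). Ftcd, an enzyme of histidine breakdown, differed by 0.66 ± 0.15 (0.0101) and Ivd, an enzyme of leucine breakdown, by -0.31 ± 0.08 (0.0216). Cyp27b1, the 1-alpha-hydroxylase that makes active vitamin D, was dim in controls, at 5.68 to 6.72 (median 6.01), and spread widely in diabetic kidneys, at 6.35 to 9.41 (median 7.62). The groups overlapped between 6.35 and 6.72, and diabetic array 1 was the highest, at 9.41. The difference was 1.60 ± 0.45 (adjusted p = 0.0446; lost without diabetic arrays 1, 4, 5 and 6 or control arrays 1, 2, 3, 5 and 6, up to 0.115), and it was 0.90 without the 4 clock-shifted arrays. Cyp24a1, which degrades active vitamin D, had a wide interval of the difference, -2.64 to 0.64, and did not pass. Cyp4b1 and Cyp2j11, other cytochrome P450 genes, differed by -0.56 ± 0.15 (0.0309; lost without diabetic arrays 5 and 6 or control arrays 1, 2, 3 and 4, up to 0.0929) and -0.39 ± 0.09 (0.0153).

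**Figure D4:**
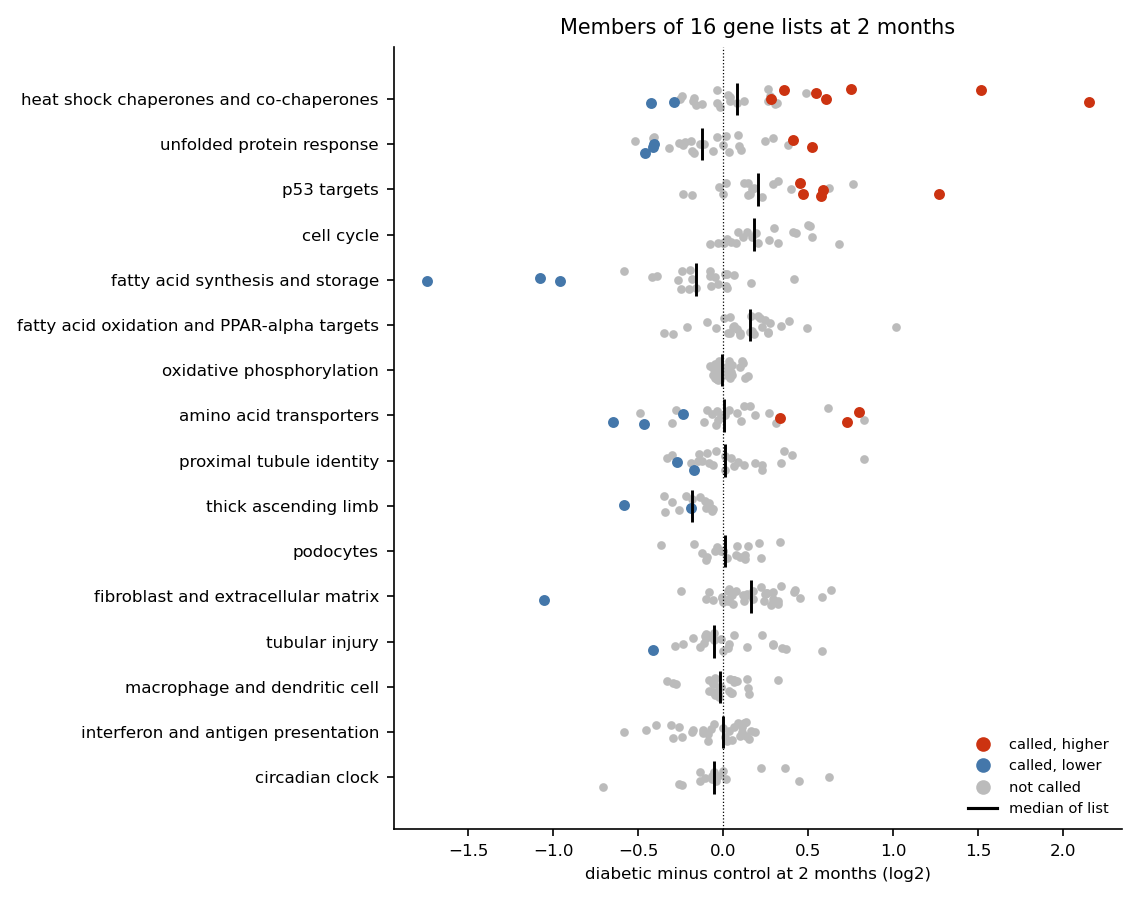
Diabetic minus control log2 difference at 2 months of each tested member of 16 gene lists. Red and blue points passed the threshold as higher and lower in diabetic kidney, grey points did not, and black bars are list medians. Heat shock chaperones hold 7 red points and p53 targets 5, while the lists of macrophages, interferon response, podocytes and clock genes hold 0 coloured points.

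Other genes without overlap covered varied functions. Mtarc1, a mitochondrial reductase, rose from 5.26 to 6.34 (median 5.86) to 6.92 to 7.94 (median 7.32), a difference of 1.59 ± 0.42 (adjusted p = 0.0311; lost without diabetic arrays 3 and 5 or control arrays 2 and 3, up to 0.0754), whereas a dimmer probe set of it gave 0.12. Npl, which breaks down sialic acid, rose from 9.70 to 10.63 (median 10.27) to 10.78 to 11.60 (median 10.85), a difference of 0.78 ± 0.13 (0.00062). The lysosomal protease Ctsh fell by 0.26 (adjusted p = 0.0163; lost without control array 2, 0.0599), and Ctsh and Npl were the 2 called of 27 genes in the lysosome list. Rises of 0.39 to 0.61 were measured for Tmem52, Kctd5, Arnt2, Dglucy, Ppp4r3b and Scamp5. Of these 6, Tmem52, Dglucy and Ppp4r3b were lost with at least 1 array left out: Tmem52 (0.61 ± 0.17) without diabetic arrays 1, 3 and 4 or control arrays 1, 2, 3, 5 and 6, Dglucy (0.40 ± 0.11) without diabetic arrays 1, 3 and 4 or control arrays 1, 2, 3, 4 and 5, and Ppp4r3b (0.39 ± 0.10) without diabetic arrays 1 and 3, with adjusted p up to 0.104, 0.11 and 0.0714. Without control array 6, its lowest, Ppp4r3b differed by 0.25. Arnt2, a partner of PAS-domain transcription factors, rose by 0.43 ± 0.09 (adjusted p = 0.00449).

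The falls without overlap included Rnf24, a RING finger gene, from 10.05 to 11.46 (median 10.54) to 8.71 to 9.84 (median 9.54), a difference of -1.21 ± 0.28 (adjusted p = 0.0116), although another of its probe sets gave -0.04. Fam107a lay at 12.63 to 12.85 (median 12.69, SD 0.08) in controls and 11.62 to 12.18 (median 11.82, SD 0.19) in diabetic kidneys, a difference of -0.84 ± 0.11 (2.23e-05). Its other probe sets gave -0.86 (called) and -0.61 (not called). Mep1b, the brush border protease meprin beta, fell from 10.95 to 11.32 (median 11.16) to 10.13 to 10.54 (median 10.39), a difference of -0.77 ± 0.16 (0.00447). Irf5, an interferon regulatory factor, was dim, at 6.87 to 7.50 (median 7.03) and 6.28 to 6.49 (median 6.39), and differed by -0.74 ± 0.12 (0.000407), with -0.10 on another probe set. Serpina10, an inhibitor of clotting proteases, was also dim, at 6.55 to 7.77 (median 7.45) and 6.06 to 6.39 (median 6.25), a difference of -1.04 ± 0.27 (0.0284; lost without diabetic arrays 3, 4 and 5 or control arrays 2 and 3, up to 0.0838). Dusp15, a phosphatase, fell by 0.97, the reductases Cbr2 and Akr1c13 by 0.87 and 0.80, the antisense transcript Hnf4aos by 0.84, the non-coding Snhg11 by 0.78 and the actin capping protein Capg by 0.76. For Cbr2 the difference was -1.14 within arrays 1 to 4 and -0.34 within arrays 5 and 6, and for Akr1c13 -0.58 and -1.24.

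Overlapping groups did not preclude a call. Anxa13, an annexin of epithelial apical membranes, was at 6.65 to 7.91 (median 7.32) in controls and 5.11 to 6.83 (median 6.27) in diabetic kidneys, a difference of -1.31 ± 0.23 (adjusted p = 0.000708). On the 12 arrays alone the adjusted p was 0.0666 without and 0.00557 with the block. In both groups arrays 5 and 6 were the lowest, and the within-set differences were -1.12 and -1.70. Spidr, named after its values were seen, differed by -1.34 ± 0.27 (0.00436): 5 control arrays lay between 10.30 and 10.76 and control array 6 at 8.40, below the diabetic range of 8.52 to 9.13. Without the 4 clock-shifted arrays, control 6 among them, it differed by -1.86 (adjusted p = 9.41e-05).

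Markers of the thick ascending limb, the salt-reclaiming part of the loop of Henle, were on the low side in diabetic kidney. Each of the 15 tested had a negative difference, from -0.58 to -0.06 (median -0.18), and 2 of them fell. Among the 13004 genes of the fit, 7054 differences were negative. Lists of later segments also leaned to the low side. Negative differences numbered 12 of 16 for the distal convoluted and connecting tubule (median -0.14) and 13 of 17 for principal cells (-0.11). For intercalated cells they numbered 13 of 19 (-0.08), for the proximal tubule 12 of 25 and for podocytes 9 of 20. In bulk tissue, fewer cells of a type and less RNA per cell cannot be told apart. Umod, uromodulin, the main protein of normal urine, was at 13.89 to 14.20 (median 13.98) in controls and 13.72 to 13.95 (median 13.79) in diabetic kidneys, a difference of -0.19 ± 0.05 (adjusted p = 0.0421; lost without diabetic arrays 1, 3, 4 and 5 or control arrays 2, 4, 5 and 6, up to 0.0885). Ptger3, a prostaglandin E2 receptor, differed by -0.58 ± 0.15 (0.0285; lost without diabetic arrays 1, 3 and 4 or control arrays 2 and 4, up to 0.072, and -0.39 without diabetic array 1, its lowest). Egf differed by -0.26 ± 0.10 (adjusted p = 0.168) without overlap, and Slc12a1, the salt carrier that furosemide blocks, by -0.07 ± 0.09. The mean level of the 15 markers was 10.11 to 10.66 on diabetic and 10.53 to 10.76 on control arrays, which overlapped. The list median was -0.23 within arrays 1 to 4 and -0.09 within arrays 5 and 6.

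Proximal tubule identity genes did not move together: 2 of 25 fell, 0 rose, and the median was 0.01. The 2 were the protease genes Napsa, with -0.17 ± 0.05 (adjusted p = 0.038, 0.0587 with the block; lost without diabetic arrays 1, 3, 4 and 6 or control arrays 1, 3, 4 and 5, up to 0.0875), and Mme, neprilysin, with -0.27 ± 0.07 (0.0327; lost without diabetic arrays 1, 3, 4 and 5 or control arrays 1, 2 and 5, up to 0.0896). The endocytic receptor Lrp2, megalin, differed by -0.19 ± 0.13 and Slc34a1 by 0.05 ± 0.08. In the collecting duct Aqp4, a basolateral water channel, was at 9.21 to 10.74 (median 10.44) in controls, control array 6 being the lowest, and at 9.27 to 9.80 (median 9.65) in diabetic kidneys, a difference of -0.69 ± 0.17 (adjusted p = 0.0173; 0.0603 without control array 2). It was the only called gene of 17 principal cell markers, and Aqp2 differed by -0.07 ± 0.18 (interval -0.44 to 0.30). Of 16 distal tubule, 19 intercalated cell and 20 podocyte markers 0 passed (4, 6 and 3 unadjusted), and with the block 1 distal tubule gene was lower and 1 intercalated cell gene higher. Nphs1, nephrin of the filtration slit, differed by 0.21 ± 0.12 (interval -0.04 to 0.47), with control array 6 at 6.99 and the other controls from 7.72 to 7.79. The tubular stem-like marker Prom1, in the list of injury genes, fell by 0.41 (adjusted p = 0.0272; lost without diabetic arrays 4, 5 and 6 or control arrays 2 and 6, up to 0.0832).

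Of 20 genes for glucose transport and sensing 0 passed in this fit, and 4 had an unadjusted p under 0.05. Slc5a2, the sodium-glucose carrier SGLT2 of the early proximal tubule, was at 12.11 to 12.45 (median 12.29) in controls and 12.19 to 12.78 (median 12.53) in diabetic kidneys, a difference of 0.23 ± 0.09 (interval 0.04 to 0.41, adjusted p = 0.2). Slc5a1, SGLT1, differed by -0.15 ± 0.11 and the basolateral exit carrier Slc2a2, GLUT2, by 0.36 ± 0.14 (adjusted p = 0.202), with control array 6 the lowest at 10.86. Slc2a1, GLUT1, differed by -0.37 ± 0.11 (adjusted p = 0.0581) and passed with the block (0.0445), but not with the block on the 12 arrays (0.12). Txnip, which high glucose induces in many cells, lay at 10.55 to 12.45 (median 11.92) in controls and between 11.40 and 12.81 in diabetic kidneys, a difference of 0.28 ± 0.26 (interval -0.24 to 0.81).

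Few markers of tubular injury and of inflammation passed the test at this age. Havcr1, the injury marker KIM-1, was at 6.73 to 7.25 (median 6.96) in controls and 6.47 to 7.32 (median 6.95) in diabetic kidneys, a difference of -0.06 ± 0.28 (interval -0.62 to 0.51). Lcn2, the injury marker NGAL, was dim, at 4.49 to 5.08 (median 4.70) and 4.54 to 6.47 (median 5.31), and differed by 0.58 ± 0.35 (interval -0.12 to 1.29, adjusted p = 0.445). Of 25 injury genes 1 passed, Prom1. Of 26 macrophage and dendritic cell, 13 lymphocyte, 31 interferon and antigen presentation, 16 chemokine and adhesion and 17 complement genes 0 passed (1, 0, 1, 1 and 2 at an unadjusted p under 0.05), with medians of -0.02, -0.11, -0.00, 0.05 and -0.01. In the fit of the 12 arrays alone 0 genes of these lists and of the injury list passed. The macrophage marker Cd68 differed by 0.15 ± 0.21, and the macrophage receptor Csf1r by -0.30 ± 0.09 (adjusted p = 0.0624, 0.025 with the block, 0.0748 with the block on the 12 arrays). The mean level of the macrophage list was 6.78 to 6.90 on diabetic and 6.74 to 7.01 on control arrays. Of 17 clock genes 0 passed, also unadjusted, and Arntl, Dbp, Per1 and Nr1d1 differed by 0.62 ± 0.38, -0.71 ± 0.57, -0.26 ± 0.28 and 0.02 ± 0.41, with SEs several times the median SE of 0.0947 over all genes. Of 28 genes of oxidative phosphorylation 0 passed (1 unadjusted), and their differences lay between -0.08 and 0.15. In all, the 49 lists held 945 tested genes, of which 23 rose and 30 fell, and 24 lists had 0 called genes. Over all genes tested 0.754% rose and 1.78% fell.

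The same contrast at 4 and 8 months used other arrays and can be set beside that at 2 months. There were 11 arrays at 4 months, with fewer control than diabetic arrays, and 12 at 8 months. Counts of called genes at 4 months are limited by this smaller and uneven set. At 4 months 54 genes (0.415%) rose and 72 (0.554%) fell, and at 8 months 1283 (9.87%) rose and 904 (6.95%) fell. Of the 98 genes that rose at 2 months 13 also rose at 4 months and 39 at 8 months; of the 232 that fell 34 also fell at 4 and 103 at 8 months. The 47 genes shared with 4 months are 14.2% of the 2-month and 37.3% of the 4-month genes, and the 142 shared with 8 months are 43.0% of the 2-month and 6.49% of the 8-month genes. At 4 months 0 and at 8 months 2 were called in the opposite direction. At all 3 ages 13 genes rose and 32 fell. Mdk was among them, with -1.06 at 4 and -1.12 at 8 months, as were Slc15a2 (-0.62 and -0.74), Lpl (-0.86 and -1.01), Slc9a8 (-1.06 and -1.30), Anxa13 (-1.56 and -1.66), Ephx1 (0.68 and 0.83) and Ccng1 (0.41 and 0.56).

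Other 2-month differences were smaller later. The difference between the effects at 8 and 2 months was called for 506 of all genes (3.89%), and for 32 of the 330, 6 that rose and 26 that fell at 2 months; in 29 of these 32 the effect was smaller in size at 8 months. The 330 were chosen by the 2-month effect that this difference contains, which favours a smaller later effect. Hspa1a differed by 0.80 ± 0.38 at 4 and 0.08 ± 0.35 at 8 months, a difference of effects of -2.07 ± 0.49 (adjusted p = 0.012), and Hspa1b by 0.56 ± 0.25 and 0.10 ± 0.23 (-1.41 ± 0.33, 0.00973). Mfsd2a differed by -0.33 ± 0.24 and -0.58 ± 0.22 (1.16 ± 0.31, 0.0261), and Acot7 by -0.27 ± 0.18 and -0.29 ± 0.17 (0.79 ± 0.23, 0.049). Fam107a, Capg, Irf5, Lrp8, Asl, Cct5, Cryab and Pdia6 were also called, with 8-month differences of -0.19, -0.03, 0.04, 0.15, -0.14, 0.12, 0.14 and 0.27.

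Serpina10 turned from -1.04 ± 0.27 at 2 months to 2.12 ± 0.27 at 8 months (difference of effects 3.16 ± 0.38, adjusted p = 3.66e-06), and Ivd fell further, to -0.74 ± 0.08. Genes not called at 2 months whose effect differed at 8 months included Havcr1 (3.01 ± 0.28 at 8 months, difference of effects 3.06 ± 0.39) and Lcn2 (4.79 ± 0.35, 4.20 ± 0.49). Slc5a2 was lower at 8 months, at -0.46 ± 0.09 (difference of effects -0.69 ± 0.13). Between 4 and 2 months 0 differences of effects were called, with 660 genes at an unadjusted p under 0.05, and the fits of subsets of arrays called up to 9. Of the 22 p53 targets 12 rose and 1 fell at 8 months, against 5 and 0 at 2 months. Of the 26 macrophage genes 24 rose at 8 months, against 0 at 2 months. The difference of these counts was not tested.

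**Figure D5:**
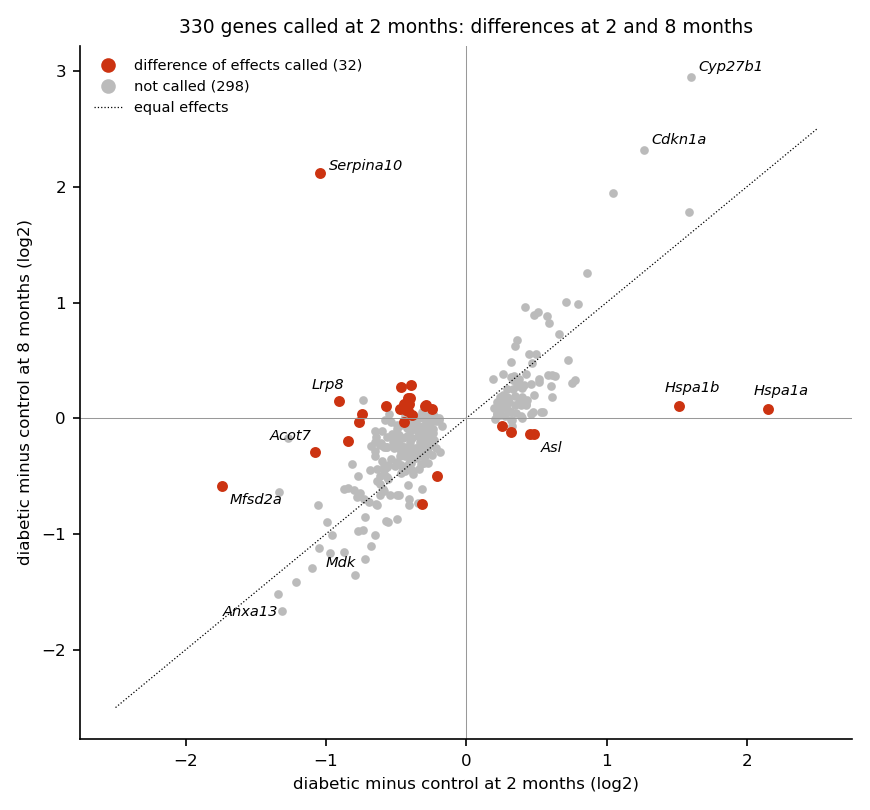
Diabetic minus control log2 difference at 8 months against that at 2 months for the 330 genes called at 2 months; red points are the 32 genes whose difference of effects was called, and the dotted line marks equal effects. Hspa1a and Hspa1b lie far right at 8-month differences of 0.08 and 0.10, and Serpina10 lies below 0 at 2 months and at 2.12 at 8 months.

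Probe sets other than the brightest gave a check of the named genes. For 41 named genes that were called, 66 other probe sets lay above the filter, of which 59 had the same sign as the brightest, 15 of these called on their own. The other 7, of Bmp7, Dnajb4, Fgfr3, Ghr, Hyou1, Mme and Rpn1, had the opposite sign, and 0 of them were called. Within arrays 5 and 6 alone 21, and within arrays 1 to 4 alone 50, of the 69 called genes that the naming rule chose passed in fits with fewer arrays. With the block over 35 arrays 68 of the 69 passed, with Napsa the exception, and in the blocked fit of the 12 arrays 44 passed. Leaving out the 4 clock-shifted arrays, which leaves 3 diabetic and 5 control arrays at this age, 37 passed and 0 of the 69 changed sign. The 32 not called then were Mtarc1, Tmem52, Phlda3, Kctd5, Pcyt1a, Dglucy, Ppp4r3b, Scamp5, Bmp7, Slc25a1, Slc38a3, Cyp27b1 and Ftcd among those that rose, and Serpina10, Akr1c13, Esm1, Mep1b, Apom, Cct5, Dnajc3, Pdia6, Umod, Mme, Napsa, Cyp2j11, Cyp4b1, Slco1a6, Ghr, Prom1, Ctsh, Cryab and Lrp8 among those that fell. Of 14 called genes named after their values were seen, 9 were not called then: Pdia5, Sec61b, Tmed3, Rpn1, Hyou1, Dnajb4, Bag3, Hspa8 and Slc3a2.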

How the data were processed

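The series holds 35 single-colour Affymetrix arrays of whole mouse kidney, of which 12 are from 2 months; an array has no read depth, and 6 arrays a group limit the precision. The authors deposited log2 values, judged so from their size, of 45101 probe sets on each array; how background, summarization and normalization were handled is not given in the sources used here. Of these, 34945 name 1 gene, 932 several, 9160 none and 64 are controls; 34741 matched the reference by gene identifier, with 0 symbols changed. A gene was its brightest probe set by the mean of 35 arrays (18193 genes), and those with a mean of at least 5.273, the 40th percentile of probe sets, were tested (13004). Group means were fitted over 35 arrays with limma 3.58.1 in R 4.3.3 (29 residual degrees of freedom, 33.7 after moderation), checked on simulated data. The median SD within groups at 2 months was 0.191.

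Arrays were grouped by title. Same-numbered diabetic and control arrays deviated together in all 6 pairs (correlations 0.246 to 0.444), though 7 of 12 arrays correlated best with their own number in the other group; the pairing comes from these values, not from the labels. Alternatives covered the arrays fitted, the block, normalization, filters, probe sets, moderation, array weights, a clock covariate and each array left out. The 4 arrays of shifted clock genes, and a term for arrays 5 and 6 in the 12-array fit, were chosen after seeing the data.

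The members, the 49 gene lists and the rules were chosen with earlier results of these data known. The rule named, among called genes without overlap, the 20 largest rises and 20 largest falls (clone-like names passed over); up to 4 called genes of each list by smallest p; the 8 largest called differences of effect between ages; and 26 fixed genes, some of which are not reported here. These were 90 genes. Named after their values were seen were Spidr, Dnaja4, Pdia5, Sec61b, Tmed3, Rpn1, Hsp90b1, Scd1, Fasn, Ccnd1, Plk2, Csf1r, Col3a1, Hspa5, Hsph1, Hsp90aa1, Dnajb1, Mdm2, Adipoq, Atf4, Xbp1, Ddit3, Slc12a1, Aqp2, Slc34a1, Lrp2, Cd68, Mki67, Top2a, Xist, Cyp24a1, Hspb1, Ptn, Sdc1, Sdc4, Cpt1a, Pdk4, Angptl4, Insr, Igf1, Fgfr3, Jak2, Dnajb4, Hspa2, Bag3, Hspa8, Trp53inp1, Hyou1 and Slc3a2. Promoter sequences are from RefSeq, GRCm38.p6.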

Additional observations from a re-analysis of the deposited data

Results flagged for a closer look

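In 14 of 180 groups of 6 arrays checked among the named genes, the highest or lowest array stood apart from the other 5 by more than Dixon's 95% limit; chance flags about 1 in 20 groups. Control array 6, the array of the highest 3'/5' ratios, was the low one for Pcyt1a (8.23), Ppp4r3b (8.34), Eif2ak3 (8.34), Aqp4 (9.21), Slc25a1 (9.72), Slc2a2 (10.86), Nphs1 (6.99) and Nr1d1 (6.14), and the high one for Arntl (7.66). Diabetic array 1 was high for Cdkn1a (10.33, with 8.82 the next) and for Npl (11.60, with 11.01 the next). Control array 5 was low for Dglucy (9.03) and Mdk (9.08), and diabetic array 6 was low for Acot7 (9.22).

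The effect of diabetes differed between 8 and 2 months, by the limma test of that difference, for 19 of the 90 genes that the naming rule chose. Effects at 8 minus 2 months were -2.07 for Hspa1a, -1.41 for Hspa1b, -0.62 for Asl, -0.43 for Ivd, -0.69 for Slc5a2, -0.82 for Nphs1 and -0.63 for Egf. They were positive for Mfsd2a (1.16), Acot7 (0.79), Serpina10 (3.16), Fam107a (0.65), Capg (0.73), Irf5 (0.78), Cct5 (0.40), Pdia6 (0.73), Cryab (0.57), Lrp8 (1.05), Havcr1 (3.06) and Lcn2 (4.20). Some of these genes were named because this difference was large.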

How the results depend on the processing

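Among the named genes and settings run, 1 called difference changed sign: Hyou1, -0.41, was 0.101 (adjusted p = 0.777) as the mean of its probe sets. The count of genes called at 2 months (330: 98 higher, 232 lower) was 64 (13 and 51) on the 12 arrays alone, 168 (37 and 131) on them with the replicate block, and 553 (168 and 385) with the block over 35 arrays. It was 696 (203 and 493) with a term for arrays 5 and 6, 571 (457 lower) on arrays 5 and 6 alone, and 45 (8 and 37) with array weights by group. Higher genes numbered 151 after quantile normalization within age and 65 after centring on the median. Without the 4 clock-shifted arrays 162 passed (57 and 105). With 1 array left out the counts were 192 to 515 in all, 42 to 133 higher and 141 to 388 lower. Differences of effect at 4 minus 2 months, 0 in the fit reported, numbered 7 on arrays 1 to 4, 9 on arrays 5 and 6, 4 without the clock-shifted arrays and 0 to 2 with 1 array left out. Those at 8 minus 2 months, 506, numbered 854 with the term, 222 with array weights, and 381 to 630 with 1 array left out. Of 69 called genes that the rule named, 68 passed with the block over 35 arrays; on the 12 arrays 44 passed with the block and 32 without. The cause of these shifts was not tested. The 6 arrays of a group limit small effects: the median SE was 0.0947.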
